A study of Mus musculus with 8 samples.

Results

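Interferon-stimulated genes are the genes that a cell switches on when it senses interferon. The 41 described here were chosen by name, as a list of established type I and type II interferon targets, among 17945 genes with a probe that passed the filter on dim probes and 31693 genes on the array. All 41 were found on the array, on 54 probes, and 41 of 41 passed the filter, with 53 of their probes. Of these, Trim30a and Herc6 are deposited under the older names Trim30 and Herc5. The cells were macrophages grown from mouse bone marrow, and their cytoplasmic RNA was hybridised to 8 arrays with 2 colours each. The arrays form 4 groups of 2: ERT2 Cre Thoc5 (flox/flox) cells with tamoxifen and without it, called flox cells here, and ERT2 Cre cells with tamoxifen and without it, called control cells. Each array set RNA of day 3 under CSF-1 against RNA of day 0 of the same genotype and experiment, and 1 day 0 RNA served both arrays of a genotype and experiment. Tamoxifen releases the Cre recombinase fused to the ERT2 receptor domain, which then cuts the floxed Thoc5 alleles. The Cre transgene is carried by the control cells too, and all cells are of the labelled background C57BL/6 x B6:129 Ola. The promoter that drives Cre, the tamoxifen dose and the age of the mice are not given in the sources used here.

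Type I interferons bind a receptor that activates JAK kinases. These phosphorylate STAT proteins, which join IRF9 and bind the interferon-stimulated response element (ISRE) in target promoters, while interferon-gamma signals to the gamma-activated site (GAS). Macrophages keep a tonic level of these genes through small amounts of autocrine interferon. IRF7 amplifies the response, and many of the induced proteins detect, sequester or degrade viral RNA. THOC5 is a subunit of the THO complex, which couples transcription to export of mRNA from the nucleus.

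The ISRE letters were common in the promoters of these genes. RefSeq promoter windows on GRCm38.p6, from 250 bases before to 50 after the transcription start, were found for 32 of the 41 members, 39 windows in all. The letters GAAA, 2 bases of any kind and GAAA again, read on both strands, stood in 17 of the 39 windows (43.6%), against 3.44% of 32851 windows of all genes. The interferon-gamma motif TTCNNNGAA, read on both strands, stood in 20.5% of the members' windows, against 8.3% of all windows. A match is a description of letters and not a bound site. The stretches below are 120 bases long and are shown because these 5 members changed in the comparisons described further on and hold ISRE letters before their start. They are written 5′ to 3′ on the gene's strand, with the matches in capitals.

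Isg15, chr4:156200826-156200945, minus strand: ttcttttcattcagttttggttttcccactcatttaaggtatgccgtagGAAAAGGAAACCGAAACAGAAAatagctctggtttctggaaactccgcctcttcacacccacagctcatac
Bst2, chr8:71537535-71537654, minus strand: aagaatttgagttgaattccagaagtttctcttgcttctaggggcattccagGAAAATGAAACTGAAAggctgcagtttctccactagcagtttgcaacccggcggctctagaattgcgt
Ifit1, chr19:34640739-34640858, plus strand: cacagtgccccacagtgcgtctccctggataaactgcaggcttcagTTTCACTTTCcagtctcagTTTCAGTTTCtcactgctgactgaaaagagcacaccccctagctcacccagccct
Ifit3, chr19:34583335-34583454, plus strand: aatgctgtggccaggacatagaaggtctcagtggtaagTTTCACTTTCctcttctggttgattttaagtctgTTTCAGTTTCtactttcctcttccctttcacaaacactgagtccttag
Oas3, chr5:120777670-120777789, minus strand: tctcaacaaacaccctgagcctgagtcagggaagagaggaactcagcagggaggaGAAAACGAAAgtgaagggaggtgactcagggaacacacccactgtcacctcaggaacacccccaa

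The Isg15 stretch holds 3 overlapping matches, the first at -78 and the last at -66 from the start of transcription, and Bst2 holds 2 that overlap. Ifit1 and Ifit3 each hold 2 separate matches on the opposite strand, and Oas3 holds 1. The median tamoxifen effect in flox cells, described further on, was -0.32 on the log2 scale for the 16 members with ISRE letters in a window and -0.28 for the 16 without.

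Thoc5 itself checked the labels. Its log2 ratio of day 3 over day 0 was -3.04 and -3.02 on the arrays of flox cells with tamoxifen, -0.74 and -0.77 in flox cells without tamoxifen, -0.21 and -0.15 in control cells with tamoxifen, and -0.40 and -0.28 in control cells without. All 9 macrophage markers examined (among them Csf1r, Adgre1 and Cd68) were well above background in both channels of all 8 arrays. All 9 neutrophil markers were above background too. Their summed intensity in day 0 RNA was 430600 to 466580 in flox cells and 246211 to 294923 in control cells. In day 3 RNA it was 33754 to 46674 in flox cells and 58651 to 75847 in control cells. The part of these other cells in the results below was not tested, and in bulk RNA fewer cells of a type and less RNA per cell cannot be told apart. The summed intensity of 9 plasmacytoid dendritic cell markers, a cell type known for interferon production, in day 3 RNA was 55921 to 59215 in flox cells and 51341 to 67894 in control cells; Klk1, one of them, was above background in 1 of 8 day 3 channels. Of the 7 of these markers that passed the filter, 6 were below 0 and 1 was called lower in the tamoxifen effect of flox cells (median -0.24). The same counts held between the genotypes with tamoxifen (median -0.22) and without it (median -0.26). In the tamoxifen effect of control cells 6 were below 0 and 0 were called (median -0.08). Of all genes 4.15%, 5.82%, 1.45% and 0% were called lower, in the same order. Values below are log2 ratios of day 3 over day 0 on each array, first experiment 1 and then experiment 2, unless levels are named. The second experiment had the dyes swapped and its own slide, so experiment, dye and slide cannot be told apart. Changes were tested with limma over all 17945 genes with a term for the experiment, two-sided, and a gene was called where its Benjamini-Hochberg adjusted p was under 0.05. Cells of 2 experiments entered each group, so p-values rest on 3 residual degrees of freedom.

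By day 3 the members had moved in both directions. Irf7, Ifit2, Ifit3, Rtp4 and Bst2 were called higher at day 3 than at day 0 in all 4 groups, and Oas3 and Trim25 were called lower in all 4. Of all genes 13.3% were called higher and 20.8% lower in all 4 groups, so the 5 higher members are near the share of all genes. In flox cells with tamoxifen 6 members were called higher and 13 lower (25.5% and 33.4% of all genes, 58.9% in either direction). In flox cells without tamoxifen 16 were higher and 5 lower (23.8% and 33.4% of all genes, 57.2% in either). In control cells with tamoxifen 11 were higher and 7 lower (23.9% and 33.8% of all genes, 57.7% in either), and in control cells without tamoxifen 16 were higher and 4 lower (23.3% and 34.1%, 57.4% in either). Fewer members than genes of all kinds were thus called lower in every group but flox cells with tamoxifen, where the shares were near each other and fewer members were called higher. The members' median log2 ratio was -0.22 in flox cells with tamoxifen, 0.15 in flox cells without, -0.05 in control cells with tamoxifen and 0.20 in control cells without. Without the array of experiment 1 the flox count with tamoxifen was 7, and without that of experiment 2 it was 12. The median of flox cells without tamoxifen was 0.43 without its array of experiment 1 and -0.16 without that of experiment 2. That of control cells with tamoxifen was -0.27 and 0.17 when the same arrays of that group were left out.

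**Figure D1:**
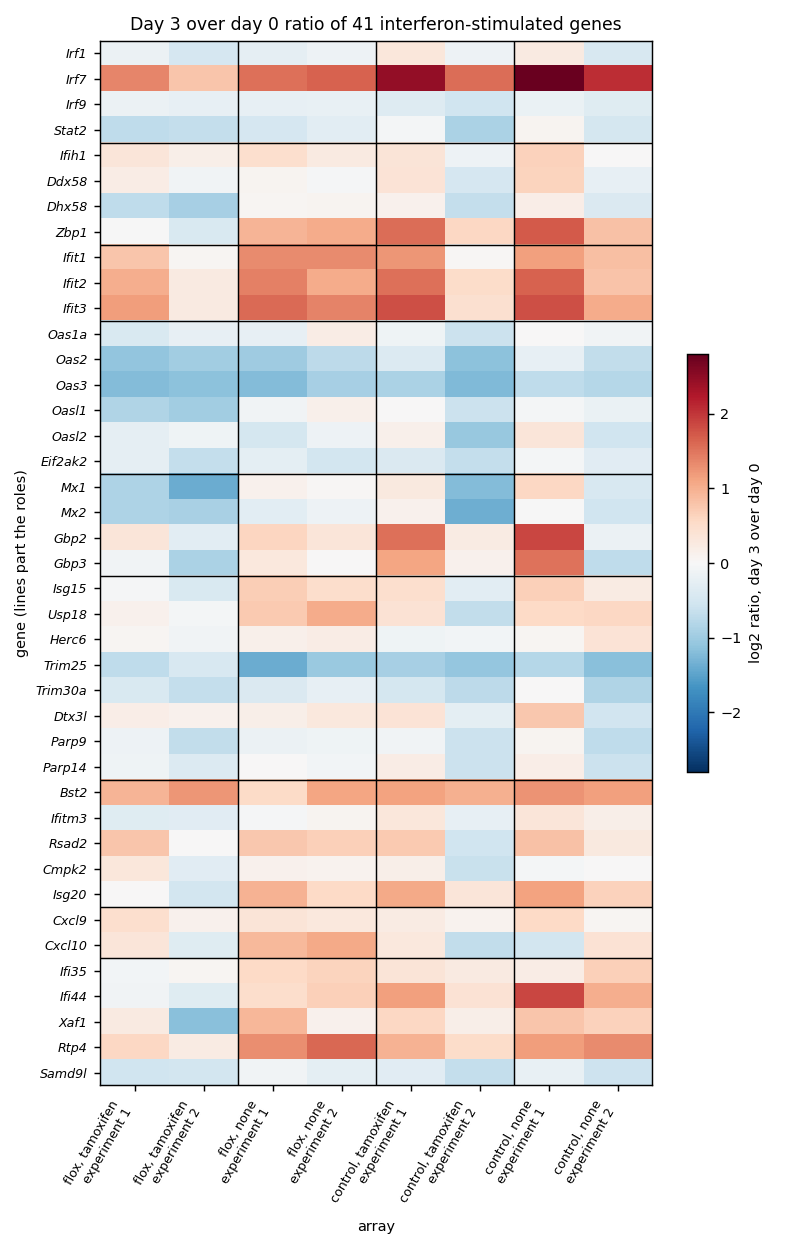
Log2 ratio of day 3 over day 0 (colour) of the 41 members (rows, grouped by role) on each of the 8 arrays (columns). Irf7 is above 0 on every array, from 0.77 to 2.77, and Oas3 is below 0 on every array, from -1.23 to -0.71; Zbp1 and Isg20 are at or below 0.01 on both arrays of flox cells with tamoxifen and above 0 on the other 6.

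Among the transcription factors Irf7 had the largest rise of the list in 3 of 4 groups. Its log2 ratios were 1.36 and 0.77 in flox cells with tamoxifen, 1.55 and 1.66 in flox cells without, 2.46 and 1.57 in control cells with tamoxifen and 2.77 and 2.07 in control cells without. All 8 arrays were above 0, and the arrays of flox cells lay below those of control cells without tamoxifen. Its mean rise was 1.07 ± 0.16 in flox cells with tamoxifen (SE, adjusted p = 0.00177) and 2.42 ± 0.16 in control cells without (adjusted p = 9.7e-05). Irf9, the DNA-binding subunit of the complex that binds the ISRE, was lower at day 3 by smaller amounts. Its ratios were -0.16 and -0.23 in flox cells with tamoxifen, -0.22 and -0.21 in flox cells without, -0.36 and -0.55 in control cells with tamoxifen and -0.19 and -0.34 in control cells without, and 3 of the 4 groups were called lower. That call was lost in flox cells without tamoxifen and in control cells without it when either array of the group was left out (adjusted p from 0.0675 to 0.403). Stat2 was called lower in 1 group, flox cells with tamoxifen, at -0.69 ± 0.18, and Irf1 was called in none.

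Of the 3 IFIT genes, Ifit1 encodes a protein that binds viral RNA lacking the host cap structure. Ifit1 had log2 ratios of 0.78 and 0.05 in flox cells with tamoxifen, 1.32 and 1.33 in flox cells without, 1.23 and 0.03 in control cells with tamoxifen and 1.14 and 0.85 in control cells without. Ifit2 had 1.01 and 0.26 in flox cells with tamoxifen, 1.41 and 1.03 in flox cells without, 1.55 and 0.51 in control cells with tamoxifen and 1.66 and 0.79 in control cells without. Ifit3 had 1.17 and 0.26 in flox cells with tamoxifen, 1.58 and 1.39 in flox cells without, 1.80 and 0.44 in control cells with tamoxifen and 1.80 and 1.04 in control cells without. All 24 of these ratios were above 0, and the lowest of each gene fell in experiment 2 of a tamoxifen group. Ifit3 lost its call in flox cells with tamoxifen when either array of that group was left out (adjusted p 0.0746 and 0.136).

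Of the 6 genes for enzymes that recognise double-stranded RNA, 4 were called lower in flox cells with tamoxifen, 3 in flox cells without, 3 in control cells with tamoxifen and 1 in control cells without, beside 33.4% to 34.1% of all genes. OAS proteins make the oligoadenylates that activate RNase L, and Eif2ak2 encodes PKR, a kinase that halts translation. None of the 6 was called higher in any group, and Oas1a and Oasl2 were called in none. The 2 Oas1a probes differ in sign: mean ratios in the 4 groups ran from -0.36 to -0.01 at the brighter probe and from 0.1 to 0.29 at the further one. Oas3 had log2 ratios of -1.22 and -1.14 in flox cells with tamoxifen, -1.22 and -0.92 in flox cells without, -0.88 and -1.23 in control cells with tamoxifen and -0.71 and -0.80 in control cells without. Oas2 had -1.10 and -0.98 in flox cells with tamoxifen, -1.0 and -0.74 in flox cells without, -0.38 and -1.14 in control cells with tamoxifen and -0.22 and -0.69 in control cells without, and was called in all groups but the last. Eif2ak2 had -0.26 and -0.66 in flox cells with tamoxifen, -0.28 and -0.51 in flox cells without, -0.40 and -0.67 in control cells with tamoxifen and -0.05 and -0.31 in control cells without, and was called in the same 3 groups. Oas2 lost its call without the experiment 1 array in both flox groups (adjusted p 0.0586 with tamoxifen and 0.119 without it) and without the experiment 2 array in treated control cells (0.217). Eif2ak2 lost its call in untreated flox cells without the experiment 1 array (0.0731). Every array of these 3 genes was below 0. Oasl1, an OAS-like protein without that enzyme activity, was called lower in flox cells with tamoxifen alone, at -0.84 and -0.97 (adjusted p = 0.00154); its arrays ran from -0.60 to 0.14 in the other groups.

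The GTPases Mx1 and Mx2 belong to a family known for antiviral proteins, and the guanylate-binding proteins Gbp2 and Gbp3 attack pathogen vacuoles. Mx1 had log2 ratios of -0.87 and -1.39 in flox cells with tamoxifen, 0.11 and 0.03 in flox cells without, 0.28 and -1.21 in control cells with tamoxifen and 0.58 and -0.45 in control cells without. Mx2 had -0.86 and -0.90 in flox cells with tamoxifen, -0.30 and -0.14 in flox cells without, 0.11 and -1.36 in control cells with tamoxifen and -0.01 and -0.56 in control cells without. Both were called lower in flox cells with tamoxifen and in no other group. For both genes the treated flox and treated control arrays overlapped when the experiments were pooled. Within experiments, treated flox minus treated control was -1.15 and -0.18 for Mx1, and -0.97 and 0.46 for Mx2. Without the treated flox array of experiment 1 neither passed (adjusted p 0.079 for Mx1 and 0.285 for Mx2), and without that of experiment 2 Mx2 did not (0.0549). Gbp2 was called higher in the 2 control groups, where its arrays ran from -0.16 to 1.86.

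In the ISG15 system and among the ubiquitin ligases and PARPs, Trim25, a ligase that ubiquitinates RIG-I, was called lower in all 4 groups. Its log2 ratios were -0.70 and -0.45 in flox cells with tamoxifen, -1.39 and -1.04 in flox cells without, -0.94 and -1.08 in control cells with tamoxifen and -0.79 and -1.18 in control cells without. The tamoxifen-treated flox arrays were the nearest to 0. Trim30a, a TRIM protein that restrains Toll-like receptor signalling, was called lower in both tamoxifen groups, at -0.42 and -0.67 in flox cells and -0.49 and -0.73 in control cells. Its call in control cells was lost when either array of that group was left out (adjusted p 0.133 and 0.16). Usp18, the protease that removes ISG15, was called higher in flox cells without tamoxifen, at 0.74 and 1.03, and in no other group. Dtx3l was called in no group by its brighter probe, but its further probe gave mean ratios of 1.11 to 1.28 in the 4 groups, so the probes of this gene disagree.

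Bst2, which encodes tetherin, a membrane protein that holds budding virus at the cell surface, rose in all 4 groups. Its log2 ratios were 0.95 and 1.24 in flox cells with tamoxifen, 0.54 and 1.10 in flox cells without, 1.13 and 0.99 in control cells with tamoxifen and 1.25 and 1.14 in control cells without. Rsad2, which encodes viperin, was called higher in both groups without tamoxifen, with ratios of 0.75 and 0.66 in flox cells and 0.83 and 0.27 in control cells. Cxcl10, a chemokine that draws T cells, had 0.34 and -0.34 in flox cells with tamoxifen, 0.90 and 1.07 in flox cells without, 0.30 and -0.69 in control cells with tamoxifen and -0.52 and 0.40 in control cells without. It was called in flox cells without tamoxifen alone, and the arrays of the other groups lay on both sides of 0. Cxcl9, another T cell chemokine, was the one member near the background, with day 0 RNA well above it on 5 of 8 arrays; its ratios ran from 0.05 to 0.55.

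Among the other induced genes, Ifi44 had log2 ratios of -0.10 and -0.35 in flox cells with tamoxifen, 0.49 and 0.67 in flox cells without, 1.15 and 0.40 in control cells with tamoxifen and 1.87 and 1.02 in control cells without. It was called higher in the 3 groups other than flox cells with tamoxifen, where both arrays were below 0. Samd9l, a restriction factor of poxviruses, had -0.56 and -0.52 in flox cells with tamoxifen, -0.10 and -0.27 in flox cells without, -0.31 and -0.66 in control cells with tamoxifen and -0.21 and -0.58 in control cells without. All 8 arrays were below 0, and Samd9l was called lower in every group but flox cells without tamoxifen; the call in untreated control cells was lost without the experiment 2 array (adjusted p 0.134).

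The effect of tamoxifen in flox cells was tested where the Thoc5 ratio fell by 2.27 on the log2 scale (adjusted p = 0.000711). Isg20, Zbp1, Rtp4, Oasl1, Dhx58 and Isg15 fell, 6 of 41 members, where 4.15% of all genes were called lower; 0 members were called higher (4.87% of all genes, 9.02% in either direction). The median tamoxifen effect over the members was -0.35 on the log2 scale, against -0.01 for all genes, with -0.24 in experiment 1 and -0.57 in experiment 2. It was below 0 for 36 of the 41 members (51.2% of all genes), and 28 were lower in both experiments (38.2% of all genes). At an unadjusted p under 0.05, 15 members were lower and 1 was higher, and 24.9% of all genes passed that threshold in either direction.

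Isg20, an exonuclease that degrades viral RNA, had log2 ratios of 0.01 and -0.51 in flox cells with tamoxifen, against 0.98 and 0.56 in flox cells without; they were 1.07 and 0.34 in control cells with tamoxifen and 1.13 and 0.64 in control cells without. Both treated flox arrays lay below the other 6. The tamoxifen effect was -1.02 ± 0.11 (SE, adjusted p = 0.00635), a 2.03-fold lower ratio, and its further probe gave -0.96. Zbp1, a sensor of Z-form nucleic acids, had -0.02 and -0.42 in flox cells with tamoxifen, against 0.95 and 1.03 in flox cells without; they were 1.57 and 0.58 in control cells with tamoxifen and 1.72 and 0.81 in control cells without. Again both treated flox arrays were the lowest, with an effect of -1.21 ± 0.26 (adjusted p = 0.038) and -0.83 at its further probe. Rtp4, a chaperone that also limits viral replication, had 0.57 and 0.22 in flox cells with tamoxifen, against 1.31 and 1.61 in flox cells without; they were 0.97 and 0.52 in control cells with tamoxifen and 1.18 and 1.32 in control cells without. Its effect was -1.06 ± 0.20 (adjusted p = 0.0263). Treated flox and treated control arrays overlapped when the experiments were pooled, but within each experiment the treated flox array was the lower. The rise of Rtp4 in treated flox cells was itself not called without either array of that group (adjusted p 0.461 and 0.075), nor that of Zbp1 in treated control cells without the experiment 1 array (0.0724).

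Oasl1 had log2 ratios of -0.84 and -0.97 in flox cells with tamoxifen, against -0.10 and 0.14 in flox cells without; they were 0.01 and -0.60 in control cells with tamoxifen and -0.05 and -0.18 in control cells without. Its effect was -0.93 ± 0.19 (adjusted p = 0.0346), and both treated flox arrays were the lowest. Dhx58, which encodes LGP2, a regulator of the RNA sensors RIG-I and MDA5, had -0.71 and -0.94 in flox cells with tamoxifen, against 0.06 and 0.08 in flox cells without; they were 0.11 and -0.66 in control cells with tamoxifen and 0.18 and -0.40 in control cells without. Both treated flox arrays were the lowest here too, with an effect of -0.89 ± 0.19 (adjusted p = 0.0408). Isg15, the ubiquitin-like protein that is conjugated to newly made proteins, had -0.04 and -0.42 in flox cells with tamoxifen, against 0.69 and 0.49 in flox cells without; they were 0.48 and -0.30 in control cells with tamoxifen and 0.66 and 0.22 in control cells without. The treated arrays of the 2 genotypes overlapped when the experiments were pooled. Within each experiment Isg15 was lower in treated flox than in treated control cells, by -0.52 and -0.12. Its day 3 levels were 12.82 and 12.57 in treated flox cells and 13.46 and 13.59 in treated control cells. Its effect was -0.82 ± 0.15 (adjusted p = 0.024), and -1.04 at its further probe.

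Leaving out single arrays changed these calls. Without an experiment 2 array of flox cells, with or without tamoxifen, 0 members were called, and without an experiment 1 array of flox cells 2 were. Median effects were -0.60 without the untreated flox array of experiment 1 and -0.11 without that of experiment 2. Leaving out a control array gave 5 to 9 calls. Mx1 (-1.20 ± 0.31), Ifi35 (-0.61), Ifit1 (-0.91), Xaf1 (-0.98), Ifi44 (-0.80) and Usp18 (-0.85) were lower in both experiments and missed the adjusted threshold, with adjusted p from 0.0515 to 0.145. Trim25 was the member with the largest positive effect, 0.64 ± 0.19 (adjusted p = 0.0917), at 0.69 in experiment 1 and 0.59 in experiment 2. Markers of other cells moved in the same comparison. In day 3 RNA the summed intensity of 7 B cell markers was 4968 and 3912 in flox cells with tamoxifen and 9348 and 8495 in flox cells without, and that of 7 classical dendritic cell markers was 3999 and 2713 with tamoxifen and 6502 and 4976 without. Of the 9 macrophage markers 6 were above 0 (median 0.34), with 2 called higher and 2 lower (4.87% and 4.15% of all genes). Cd68 (0.99) was among those that rose, and Itgam (-0.86) and Fcgr1 (-0.86) fell. Their part in the result was not tested. In the day 3 channel alone, without setting it against day 0, 10 members were called lower and 1 higher (6.3% and 7.09% of all genes), the higher one being Trim25 at 0.75 ± 0.12 (adjusted p = 0.0105).

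**Figure D2:**
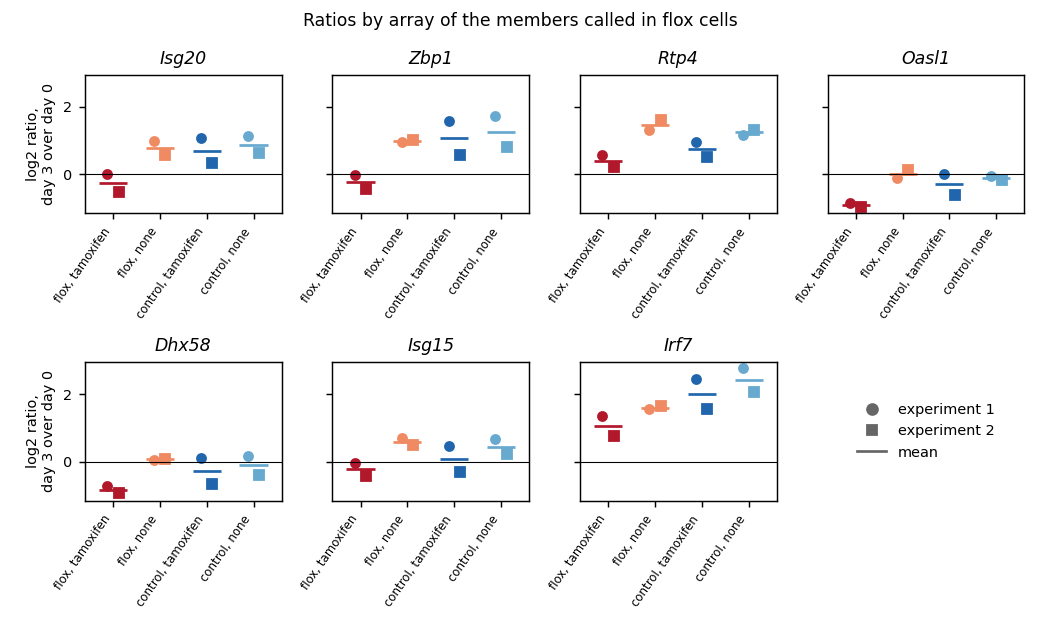
Log2 ratio of day 3 over day 0 (vertical axis) on each array for the 6 members called in the tamoxifen effect of flox cells and for Irf7, called between genotypes with tamoxifen; groups along the horizontal axis, circles experiment 1, squares experiment 2, bars the mean of 2 arrays. For Isg20, Zbp1, Oasl1 and Dhx58 both arrays of flox cells with tamoxifen are the lowest of the 8.

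Control cells carry Cre and no floxed Thoc5, and the tamoxifen effects of the members there lay mostly below 0 without any being called. The median effect was -0.21, against 0.01 for all genes, and it was below 0 for 38 of 41 members (45.8% of all genes), with 26 lower in both experiments (23.4% of all genes). No single member was called by limma, and 0% of all genes were; 4 members (Eif2ak2, Herc6, Ifi44 and Rtp4) had an unadjusted p under 0.05, all lower, where 5.52% of all genes had one. The effect was -0.51 ± 0.20 for Rtp4 (adjusted p = 0.86), -0.67 for Ifi44 (adjusted p = 0.855) and -0.36 for Eif2ak2 (adjusted p = 0.679). The median was further below 0 in experiment 2, at -0.41 against -0.16 in experiment 1. It was 0.02 without the treated control array of experiment 2 and -0.47 without that of experiment 1.

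Across both genotypes, 19 of the 41 members (46.3%) had a tamoxifen effect below 0 in both experiments of both, against 10.5% of all genes. Isg20, Zbp1, Rtp4, Dhx58 and Isg15 were among them, and Oasl1 was not. No member was above 0 in all 4, as 12.4% of all genes were. Across members the effects of the 2 genotypes, which share no array, correlated with Pearson r = 0.34 (Spearman 0.26, n = 41 genes, which are not independent), and r was 0.21 over all genes. The difference of the effects, flox minus control, was called for 0 of 41 members by limma (0.546% of all genes higher and 0.596% lower). At an unadjusted p under 0.05, 4 members were lower (Isg20, Zbp1, Oasl1 and Dhx58) and Trim25 was higher, where 15.4% of all genes passed in either direction. The difference was -0.84 ± 0.16 for Isg20 (adjusted p = 0.0694), with a 95% interval of -1.22 to -0.46, and -1.02 ± 0.36 for Zbp1 (adjusted p = 0.248). For Rtp4 it was -0.56 with an interval of -1.23 to 0.12, and for Ifi44 -0.13. In the day 3 channel alone 1 member, Dhx58, was called in this difference, lower by -0.81 ± 0.16 (adjusted p = 0.0471; 1.63% of all genes lower and 1.81% higher).

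**Figure D3:**
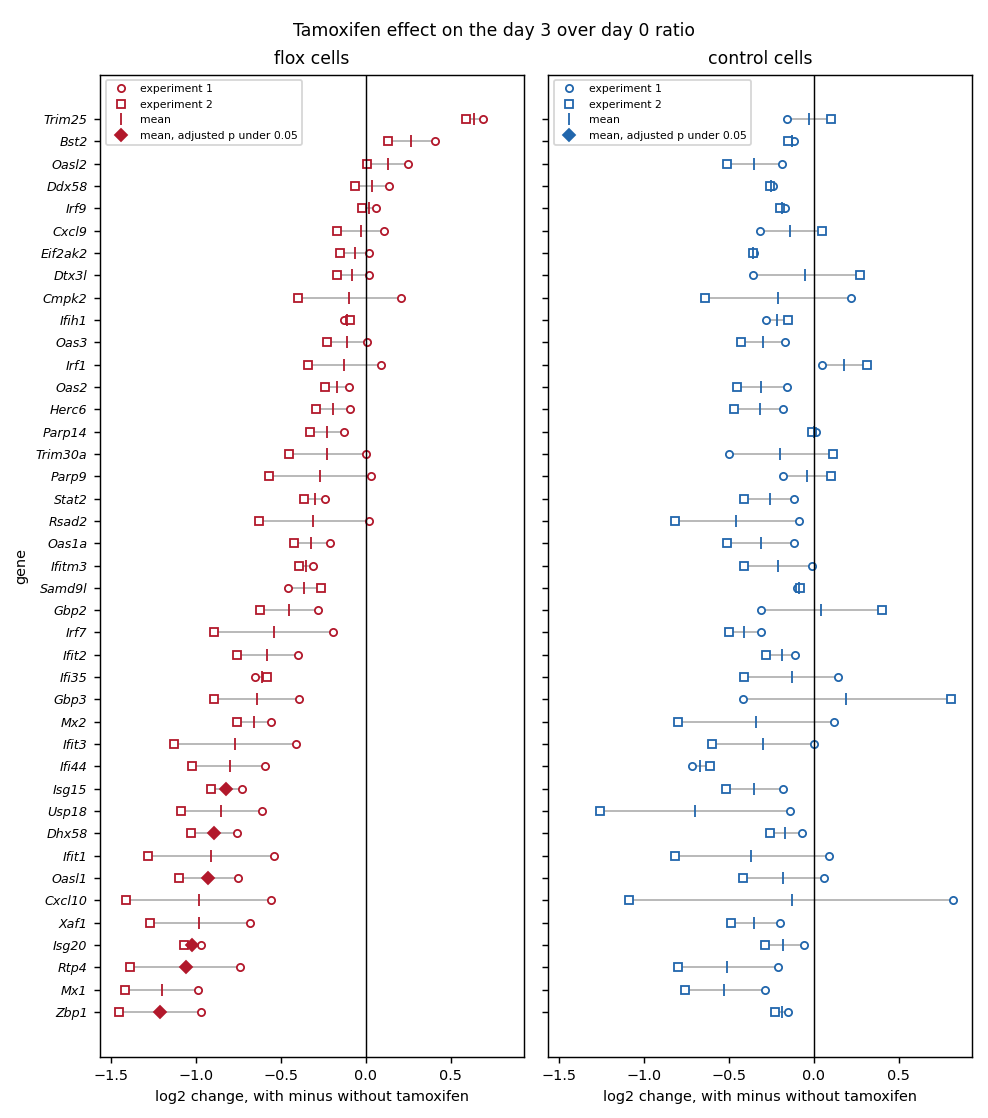
Tamoxifen effect on the log2 ratio of day 3 over day 0 (horizontal axis) for each member (rows, ordered by the effect in flox cells), in flox cells at left and control cells at right; open circles are experiment 1, open squares experiment 2, ticks their mean and diamonds a mean with adjusted p under 0.05. Points lie left of 0 for most members in both panels, and the 6 diamonds are all in flox cells.

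The day 3 change of untreated control cells and the tamoxifen effect of flox cells come from arrays that share no RNA. The 16 members called higher in those control cells had a median effect of -0.69 (range -1.21 to 0.27), below 0 for 15 of 16, against -0.04 for the 4179 genes of all kinds called higher there. The 4 members called lower had a median of -0.04, and the 21 not called -0.27. Across the 41 members the day 3 ratio in untreated control cells and the tamoxifen effect in flox cells correlated with Pearson r = -0.46 (Spearman -0.46), against -0.15 over all genes.

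Between genotypes with tamoxifen, the day 3 over day 0 ratio was lower in flox than in control cells for Isg20 (-0.95 ± 0.11, adjusted p = 0.00813), Zbp1 (-1.30 ± 0.26, adjusted p = 0.0284) and Irf7 (-0.95 ± 0.23, adjusted p = 0.0488). These were 3 of 41 members, where 5.82% of all genes were called lower, and 0 members were called higher (5.43% of all genes). Leaving out either treated array of flox or of control cells left 0 calls, and leaving out a control array without tamoxifen left 5. Markers of other cells were also called lower in this comparison, 4 of 5 tested for B cells (median -0.52), 2 of 4 for classical dendritic cells (median -0.70) and 4 of 9 for neutrophils (median -0.28). Their part in the result was not tested. The median difference over the members was -0.39 in experiment 1 and 0.02 in experiment 2. Without tamoxifen, 0 members were called between the genotypes by limma (1.44% of all genes higher and 1.45% lower, 2.89% in either); 2 members were lower and 1 higher at an unadjusted p under 0.05, where 23.1% of all genes passed. These were Irf7 (-0.82, adjusted p = 0.108), Ifi44 (-0.87, adjusted p = 0.112) and Cxcl10 (1.05, adjusted p = 0.21).

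Levels of the members at day 3 were also read from that channel alone. With tamoxifen 34 of 41 members were lower in flox than in control cells, with a median difference of -0.39 on the log2 scale. In that channel 11 members were called lower and 2 higher (8.3% and 9.16% of all genes), Ifi44 and Trim25 being the higher ones; Xaf1 (-3.51), whose second probe gives the opposite direction as described below, is 1 of the 11. Those called lower included Zbp1 (-1.66 ± 0.18, adjusted p = 0.00343), Mx1 (-1.15 ± 0.14, adjusted p = 0.00464), Ifit3 (-1.05 ± 0.25, adjusted p = 0.0344), Irf7 (-1.01 ± 0.20, adjusted p = 0.0184) and Isg15 (-0.83 ± 0.17, adjusted p = 0.0202). The median was -0.30 in experiment 1 and -0.48 in experiment 2 (0 and -0.02 over all genes). Without tamoxifen 32 of 41 members were lower in flox than in control cells, with a median of -0.21. It was -0.09 in experiment 1 and -0.33 in experiment 2 (-0.01 over all genes in each). There 4 members were called lower, Xaf1 (-2.88) among them, and Ifi44 higher (4.48% and 5.52% of all genes). At day 0 the genotypes differed by a median of 0.09 in experiment 1 and -0.55 in experiment 2, where 39 of 41 members were lower in flox cells (54.7% of all genes). The neutrophil markers, whose day 0 sums are given above, were called higher in flox day 0 RNA for 4 of 9 genes, and their part in this difference was not tested.

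**Figure D4:**
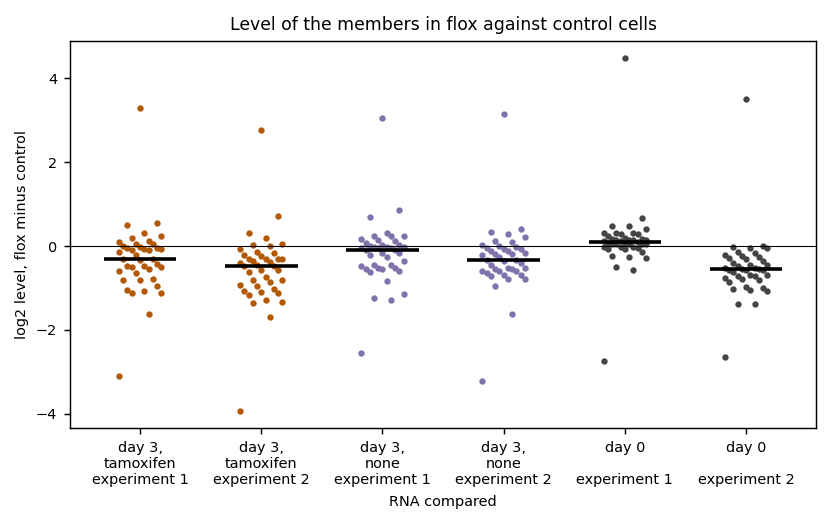
Difference in log2 level between flox and control cells (vertical axis) for the 41 members (points, spread sideways to separate them) in day 3 RNA with tamoxifen, day 3 RNA without and day 0 RNA, by experiment; bars are medians. The medians are -0.30 and -0.48 with tamoxifen, -0.09 and -0.33 without, and 0.09 and -0.55 at day 0; the isolated points are Ifi44 above and Xaf1 below.

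Ifi44 and Xaf1 differed between the genotypes far more than any other member, before any tamoxifen. Both encode interferon-induced proteins; XAF1 is known as a partner of the apoptosis inhibitor XIAP. Of the 41 members, Ifi44 was called higher and Xaf1 lower in flox day 0 RNA (0.373% and 0.134% of all genes). Ifi44 (probe at chr3:151394035-151394094, mm9) had day 0 log2 levels of 11.73 and 11.62 on the arrays of flox cells with tamoxifen and 11.72 and 11.57 on those without. In control cells they were 7.20 and 8.09 on the arrays with tamoxifen and 7.29 and 8.07 on those without. The difference was 4.00 ± 0.23 (adjusted p = 0.00433), 16.0-fold, with 4.48 in experiment 1 and 3.51 in experiment 2. At day 3 it was 8.37-fold, with no overlap of the genotypes on any array. These are differences in hybridisation signal, and whether the probe matches the transcripts of both genotypes equally was not tested.

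Xaf1 was represented by a probe at chr11:72122169-72122228 (mm9), whose day 0 levels were 9.50 and 10.26 on the arrays of flox cells with tamoxifen and 9.52 and 10.29 on those without, against 12.28 and 12.87 and 12.22 and 12.95 in control cells. The difference was -2.69 ± 0.13 (adjusted p = 0.00432), 6.46-fold lower in flox cells. A second Xaf1 probe, at chr11:72127175-72127234, gave the opposite. Its day 0 levels were 14.02, 13.98, 13.99 and 14.03 on the flox arrays and 8.19, 8.74, 8.04 and 8.71 on the control arrays, 48.1-fold higher in flox cells. At day 3 this probe was 61.3-fold higher in flox cells and the first probe 9.17-fold lower. The direction of Xaf1 between the genotypes is not settled by these probes, and both are given. Both probes were above background in all channels. With tamoxifen their day 3 over day 0 ratios moved the same way in flox cells, by -0.98 for the first (adjusted p = 0.0875) and -0.36 for the second.

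**Figure D5:**
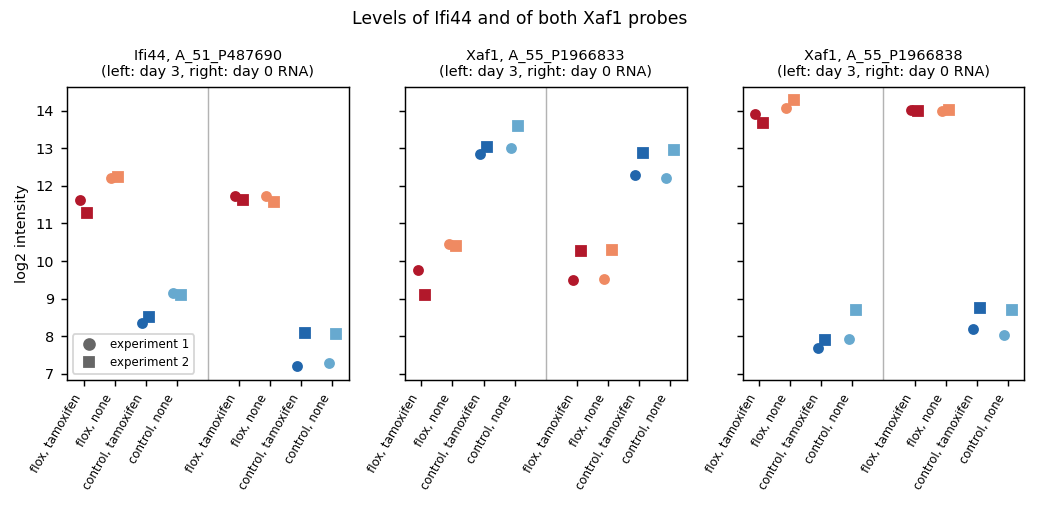
Log2 intensity (vertical axis) of Ifi44 and of both Xaf1 probes in day 3 RNA (left of each panel) and day 0 RNA (right) by group; circles experiment 1, squares experiment 2, and the 2 day 0 values of a genotype and experiment are the same RNA on 2 arrays. Flox cells lie above control cells for Ifi44 and the second Xaf1 probe and below them for the first Xaf1 probe, with no overlap.

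Genes upstream in the pathway were examined in the tamoxifen effect of flox cells. The genes for interferon-beta, interferon-alpha 4, interferon-gamma and interferon-kappa (Ifnb1, Ifna4, Ifng and Ifnk) were not well above background in any channel of any array, while Ifna2 was in all of them. Its mean log2 level was low, 7.91 at day 3 and 7.48 at day 0, beside 7.34 and 7.06 for Cxcl9, the member near the background. Of 6 interferon and receptor genes tested, 1 was called higher, Il10rb (0.54 ± 0.11, adjusted p = 0.0343), and 0 lower (4.87% and 4.15% of all genes); Ifna2 (-0.40), Ifngr1 (0.35) and Ifnar2 (-0.14) did not pass. Among 17 genes of JAK-STAT signalling, Cish, a feedback inhibitor of cytokine receptors, rose by 1.11 ± 0.17 (adjusted p = 0.0146), while Socs1, the feedback inhibitor of JAK kinases, fell by 1.13 (adjusted p = 0.012) and Nmi fell by 0.50 (adjusted p = 0.0338); Stat3 had -0.37 (adjusted p = 0.0794). Of 25 genes of nucleic acid sensing, 0 were called higher and 2 lower, the DNA sensor Cgas (-0.53, adjusted p = 0.0393) and the nucleotide hydrolase Samhd1 (-0.74, adjusted p = 0.0445), with Aim2 at -0.56 and Sting1 at -0.42 past no threshold. Of 13 GTPases induced by interferon-gamma, Igtp (-0.66, adjusted p = 0.0283) and Gvin1 (-0.59, adjusted p = 0.0316) fell and 0 rose; Ifi47 (-0.52) and Gbp6 (0.63) did not pass.

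A further list of 45 interferon-stimulated genes outside the 41 had 7 lower calls and 1 higher call (4.15% and 4.87% of all genes). The helicase Helz2 (-1.36 ± 0.15, adjusted p = 0.00638), the Fc receptor Fcgr1 (-0.86 ± 0.11, adjusted p = 0.00914), the chemokine Ccl12 (-2.97 ± 0.38, adjusted p = 0.00934), the cholesterol hydroxylase Ch25h (-2.40 ± 0.49, adjusted p = 0.0333), Ifitm1 (-0.67), Lgals9 (-0.52) and Phf11b (-0.86) fell, and Slfn2 rose by 0.79 (adjusted p = 0.0124). Its median effect was -0.10, with 27 of 45 below 0 (51.2% of all genes). In control cells 37 of these 45 were below 0 (45.8% of all genes), with a median of -0.13 and 0 calls by limma, where 1 was higher and 4 were lower at an unadjusted p under 0.05 (5.52% of all genes).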

How the data were processed

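The submitters' processing notes name Agilent Feature Extraction 10.7.3.1 for the 8 arrays, and per the file headers it normalized the dyes by LOWESS. The scanner output as deposited gives intensity per channel for each spot and its local background, quality flags, and a log10 ratio (red over green, per the file headers). The authors' processed values equal that ratio turned to day 3 over day 0, within 5e-10. Here, intensities were background-corrected with limma 3.58.1 (normexp, offset 50; R 4.3.3, statmod 1.5.0), loess-normalized within arrays without control spots, and turned by the dye labels; outlier spots were dropped, and a probe's spots were averaged. Each array has 44397 spots for 39429 probes, with 51.2% to 57.9% of probes well above background in a channel and 0 saturated. A probe was kept (22406) if, in some group, both arrays had it well above background at day 3 or both at day 0, and the brightest probe stood for a gene. Symbols were updated through RefSeq for 26412 probes by accession and 4589 by symbol or synonym. The model had 4 group means and the experiment as a term, with 3 residual and 3.46 prior degrees of freedom. The series design text ties the replicate number to the experiment, so the term pairs the arrays. Deviations of the 2 experiments from their group means correlated at 0.31 to 0.73 between groups. The highest, 0.63 and 0.73, are between groups that share day 0 RNA. Dye and slide also go with the experiment, so these correlations cannot by themselves show pairing of the cells. Levels per channel came from loess and Aquantile normalization; the genotypes' day 0 levels were tested over 4 RNAs, each the mean of 2 arrays, with 1 residual degree of freedom. The number of arrays limits the precision. A check of the fit on simulated data covered the tamoxifen effect in flox cells alone. Its noise was drawn independently for each array, so the shared day 0 RNA was not modelled. Alternatives were other normalizations, filters, blocks, probe means, the day 3 channel alone and leaving out each array; medians over members were added after seeing the data. Values per array are given for members called in the tamoxifen, difference or treated genotype comparison and for the 5 largest day 3 changes per group and direction, and the genes called and the 4 with the smallest p are given from each pathway list; further members are named after their values were seen. The members and lists were chosen with earlier results of these data known. Some items are not reported here.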

Additional observations from a re-analysis of the deposited data

Results flagged for a closer look

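The change from day 0 to day 3 with tamoxifen differed between the genotypes, by the test of the difference itself, for 3 members. The difference, flox minus control, was -0.95 for Isg20 (mean log2 ratio -0.25 in flox cells and 0.70 in control cells, adjusted p = 0.00813 by limma), -1.30 for Zbp1 (-0.22 in flox cells and 1.07 in control cells, adjusted p = 0.0284) and -0.95 for Irf7 (1.07 in flox cells and 2.01 in control cells, adjusted p = 0.0488). Isg20 and Zbp1 were lower on both treated flox arrays than on any other array, and for Irf7 the arrays of the 2 groups did not overlap. For Irf7 the genotypes differed by -0.82 without tamoxifen too (adjusted p = 0.108 by limma), again with no overlap of the arrays. As given above, the calls with tamoxifen were lost when a treated array was left out.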

How the results depend on the processing

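Alternatives were run for the 5 largest called day 3 changes per group and direction and for the members called in the other comparisons. None of these reversed its direction, and medians over members that crossed 0 are among the ranges below. The day 0 calls of Ifi44 and Xaf1 were rerun under 3 alternatives, none with another probe. The second Xaf1 probe has the opposite direction, as given above. Without the replicate block for the experiment, members called were 12 for day 3 in flox cells with tamoxifen (19 with it), 1 for tamoxifen in flox cells (6), 0 for the genotypes with tamoxifen (3) and 1 at day 0 (2). With the day 0 RNA as a random block (correlation 0.662) they were 12 for day 3 in flox cells with tamoxifen, 12 for day 3 in control cells without (20), 14 for tamoxifen in flox cells, 1 for the difference of the effects (0) and 0 for the genotypes with tamoxifen. Median centring gave 13 for tamoxifen in flox cells, 7 for the genotypes with tamoxifen and 3 without (0). Agilent's processed ratios gave 2 for tamoxifen in flox cells and 1 for the genotypes with tamoxifen. The day 3 channel alone gave 11 for tamoxifen in flox cells, 1 for the difference, 13 for the genotypes with tamoxifen and 5 without. No filter on dim probes gave 1 at day 0. The median of flox cells without tamoxifen (0.15) was 0.09 with median centring, 0.20 with Agilent's ratios and 0.13 with a strict filter. The cause was not tested. Leaving out single arrays gave 7 to 23 calls at day 3 in flox cells with tamoxifen, 14 to 23 in flox cells without, 12 to 20 in control cells with tamoxifen, 14 to 23 in control cells without, 0 to 9 for tamoxifen in flox cells, 0 to 0 in control cells and for the difference, 0 to 5 for the genotypes with tamoxifen and 0 to 0 without. Medians then ran from -0.28 to -0.18, -0.16 to 0.43, -0.27 to 0.17 and 0.14 to 0.23 at day 3 in the same order of groups, from -0.60 to -0.11 for tamoxifen in flox cells and from -0.47 to 0.02 in control cells. Of 465 values of single members under alternatives, 379 kept direction and call and 86 lost the call. This total is made up largely of day 3 changes. Each call in the tamoxifen effect of flox cells was lost in 3 (Isg20) to 6 (Dhx58, Oasl1 and Zbp1) of 12 alternatives. Calls between the genotypes with tamoxifen were lost in 6 of 12 for Isg20 and in 7 of 12 for Irf7 and for Zbp1.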
